A study of Mus musculus with 20 samples.

Results

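Fatty acid oxidation and ketone body synthesis were followed in the mouse cecum through 8 genes. They were chosen by name, as genes of fatty acid and butyrate oxidation and ketogenesis that the nuclear receptor PPAR-alpha is known to drive, and all 8 are among the 19887 genes of the count table. That choice was made with earlier results of these data known. Their shares beside those of all genes are thus descriptions and not tests. In the order of their roles the 8 genes are Ppara, Cpt1a, Acadm, Acads, Acaa2, Bdh1, Pdk4, and Angptl4. RNA of whole cecum sections from 20 C57BL/6 mice had been sequenced, 5 mice on each of 4 diets. Every mouse, the control mice included, had eaten the Total Western Diet (TWD), a rodent diet modelled on American nutrient intakes, for 6 weeks after weaning at 3 to 4 weeks of age. For another 3 weeks the TWD then held 0, 2, 5, or 10% (w/w) raw potato starch (RPS), an uncooked starch of which a large part escapes digestion and is fermented in the cecum. The mice had been bred in-house, and no litter or cage is given for them.

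Fatty acids enter mitochondria as acylcarnitines and are shortened there by the repeated steps of β-oxidation to acetyl-CoA. Colonocytes are known for using butyrate from fermentation as a main fuel by the same last steps, and for making ketone bodies from the acetyl-CoA. PPAR-alpha is a receptor for fatty acids that raises the transcription of many of these genes in the fasted liver and in the intestine, and its binding sites are built from AGGTCA elements, often a pair spaced by a base.

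Pdk4 was the gene of the 8 that passed the threshold with 10% RPS. In mice fed with 10% RPS it was downregulated 2.84-fold against 0% RPS, from 130.5 ± 32.96 to 45.9 ± 13.1 CPM (SD, n = 5 mice). The other 7 had lower estimates with 10% RPS, by 1.69% for Ppara to 37.4% for Angptl4, and did not pass the threshold. The threshold was an adjusted p of at most 0.05 in edgeR's quasi-likelihood test, with Benjamini-Hochberg adjustment over 15348 genes, and a fold change of at least 1.5. Of all genes tested, 1.04% passed it in either direction and 0.495% as lower, against 1 of the 8.

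The libraries held 14967798 to 42687283 counts. Levels are given as CPM, a gene's counts per 1000000 counts of a library sized by edgeR's TMM factors, and each mean is followed by the SD of 5 mice. The counts behind the 8 genes ran from 100 reads, for Angptl4 in mouse 5 on 5% RPS, to 16301 reads, for Acads. The 7 epithelial markers (Epcam, Vil1, Cdh1, Krt8, Krt18, Krt19, and Krt20) summed to 10214 to 16368 CPM and the 5 colonocyte markers to 20585 to 36132 CPM, while 4 skeletal muscle markers summed to 18.3 to 46.8 CPM. In bulk tissue, fewer cells of a type and less RNA per cell cannot be told apart.

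Promoter sequences are shown for Pdk4, the gene that passed the threshold, and for Cpt1a and Acadm, whose windows hold an AGGTCA element. RefSeq's promoter table (GRCm38.p6) had windows for 6 of the 8 genes, 7 windows in all, and none for Acaa2 and Angptl4. Each window is the 250 bases before the start, printed 5′ to 3′ on the strand of the gene. The Pdk4 window is chr6:5496279-5496528 on the minus strand, the Cpt1a window chr19:3323051-3323300 on the plus strand, and the Acadm window chr3:153944644-153944893 on the minus strand. Capitals mark AGGTCA read on either strand, which is TGACCT on the other, and in Acadm the 13 bases TGACCTTCGGGCT that match the PPAR-type repeat AGGTCANAGGTCA with 3 mismatches.
Pdk4: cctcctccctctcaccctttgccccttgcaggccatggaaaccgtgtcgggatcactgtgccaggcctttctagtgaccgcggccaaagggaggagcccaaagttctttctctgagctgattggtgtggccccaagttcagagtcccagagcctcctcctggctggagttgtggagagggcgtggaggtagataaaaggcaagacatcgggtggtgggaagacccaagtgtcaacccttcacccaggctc
Cpt1a: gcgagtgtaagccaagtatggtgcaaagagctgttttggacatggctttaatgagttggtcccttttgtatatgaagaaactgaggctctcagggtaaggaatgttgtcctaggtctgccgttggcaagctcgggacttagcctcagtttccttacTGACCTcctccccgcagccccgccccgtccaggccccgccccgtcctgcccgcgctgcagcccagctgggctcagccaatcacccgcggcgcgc
Acadm: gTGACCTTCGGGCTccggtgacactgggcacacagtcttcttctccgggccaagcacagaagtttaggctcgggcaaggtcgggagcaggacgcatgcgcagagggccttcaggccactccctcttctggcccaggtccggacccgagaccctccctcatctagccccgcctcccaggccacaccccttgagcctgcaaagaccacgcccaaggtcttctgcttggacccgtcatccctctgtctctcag
The element of Cpt1a lies 94 to 89 bases before the start, and that of Acadm 249 to 244 bases before it, inside the repeat-like stretch. AGGTCA is a common word, found in 14% of the 32851 windows of the table on either strand, and a repeat with at most 3 mismatches is in 21.3% of them. The exact repeat AGGTCANAGGTCA is in 0.0335% of windows and in none of the 7 here. A later start of Bdh1 has a stretch with 3 mismatches in its window, AGATCAGATGACA, 169 to 157 bases before that start. TCAAGGTCA, the element of estrogen-related receptors, and TGTTTAC, that of FOXO factors, were searched for too and are in 0.387% and 3.17% of all windows. None of the 4 searches had a match in the Pdk4 window, nor in those of Ppara, Acads, and the first start of Bdh1, which says only that these letters are not in these windows.

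Levels between genes were compared as CPM per kilobase of exon in mice fed with 0% RPS. The length was that of all annotated exons of a gene merged, 3129 bases for Acads and 10940 for Cpt1a. It can exceed the length of the transcripts present, which was not measured. The order of the genes depends on it, and the spread between mice does not cover that. Acads was at 133 ± 4.73 and Bdh1 at 61.6 ± 3.95 CPM per kilobase, and their mice did not overlap with each other or with any gene below. Acadm (37.0 ± 2.17), Pdk4 (34.4 ± 8.68), Cpt1a (34.2 ± 3.72), and Acaa2 (31.3 ± 4.83) followed, and these neighbours did not differ beyond their spread. Angptl4 (3.35 ± 0.911) and Ppara (2.90 ± 0.513) were the lowest and likewise did not differ from each other beyond their spread. With 10% RPS, Pdk4 was at 12.1 ± 3.45 CPM per kilobase and stood below Acaa2 at 26.7 ± 1.73.

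Ppara (ENSMUSG00000022383, GRCm39 chr15:85618656-85687067, plus strand) encodes the receptor itself. Ppara was at 17.0, 17.7, 24.9, 19.0, and 16.8 CPM in mice 1 to 5 on 0% RPS, the control mice, and at 21.6, 21.4, 19.1, 16.2, and 15.6 CPM in mice fed with 10% RPS. On 2% RPS it was at 16.8, 15.8, 13.2, 20.1, and 18.4 CPM, and on 5% RPS at 19.4, 17.3, 18.5, 13.2, and 22.5 CPM. The diets overlapped throughout, and mouse 3 on 0% RPS was the highest of all. The log2 fold change with 10% RPS was -0.025 (95% interval -0.33 to 0.28, adjusted p = 0.951, edgeR).

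Cpt1a (ENSMUSG00000024900, GRCm39 chr19:3371853-3437996, plus strand) encodes the carnitine palmitoyltransferase of the outer mitochondrial membrane, the controlled step of long-chain fatty acid import. Cpt1a was at 308, 406, 402, 392, and 362 CPM in control mice and at 369, 401, 358, 326, and 312 CPM in mice fed with 10% RPS. With 2% RPS its values were 419.8, 361, 401, 347, and 341 CPM, and with 5% RPS 384, 348, 342, 315, and 359.8 CPM. No mouse on an RPS diet lay below the lowest mouse on 0% RPS, mouse 1. The log2 fold change with 10% RPS was -0.081 (95% interval -0.27 to 0.11, adjusted p = 0.662, edgeR).

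The β-oxidation genes were lower by small amounts that did not pass the test. Acadm (ENSMUSG00000062908, GRCm39 chr3:153627989-153650317, minus strand) encodes the medium-chain acyl-CoA dehydrogenase. Acadm was at 214, 229, 251, 232, and 239.8 CPM in control mice and at 189.6, 207, 197, 222, and 201 CPM in mice fed with 10% RPS. Its values on 2% RPS were 216, 228, 224, 213, and 217 CPM, and on 5% RPS 213, 191, 215, 206, and 223 CPM. Of the mice on 10% RPS, 4 of 5 lay below every mouse on 0% RPS, and mouse 4 did not. The means were 233 ± 13.7, 219.7 ± 6.15, 209 ± 12.1, and 203 ± 12.2 CPM from 0 to 10% RPS. The difference between 10 and 0% RPS was -0.20 on the log2 scale (SE 0.063, adjusted p = 0.0969, edgeR), and DESeq2's Wald test gave an adjusted p of 0.0167 for it, with a fold change below 1.5.

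Acads (ENSMUSG00000029545, GRCm39 chr5:115248357-115257405, minus strand) encodes the short-chain acyl-CoA dehydrogenase, which takes butyryl-CoA. Acads was at 394, 415, 420.4, 431, and 428 CPM in control mice and at 342, 394, 366, 378, and 354 CPM in mice fed with 10% RPS. The mice on 2% RPS had 382, 349, 313, 389.9, and 379 CPM and those on 5% RPS 397, 363, 401, 372, and 419.9 CPM. Every mouse on 2% RPS was below every mouse on 0% RPS, as in 0.671% of all genes tested, while the mice on 5 and 10% RPS overlapped with them, so the order of the means did not follow the dose. The log2 fold change was -0.20 with 2% RPS (SE 0.071, adjusted p = 0.815) and -0.19 with 10% RPS (SE 0.071, adjusted p = 0.154, edgeR).

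Acaa2 (ENSMUSG00000036880) encodes the mitochondrial 3-ketoacyl-CoA thiolase, which cuts acetyl-CoA off the chain. Acaa2 was at 169, 207, 243, 219.6, and 173 CPM in control mice and at 158, 171, 170.0, 188, and 178 CPM in mice fed with 10% RPS. For 2% RPS the values were 187, 211, 128, 177, and 173 CPM and for 5% RPS 192, 176, 179.7, 131, and 179.7 CPM. The diets overlapped, and the mice on 10% RPS were closer together (SD 11.2 CPM) than those on 0% RPS (SD 31.3 CPM), a difference that was not tested. The log2 fold change with 10% RPS was -0.23 (SE 0.12, adjusted p = 0.321, edgeR).

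Bdh1 (ENSMUSG00000046598, GRCm39 chr16:31241087-31277725, plus strand) encodes the dehydrogenase that interconverts acetoacetate and 3-hydroxybutyrate, the last step of ketone body synthesis. Bdh1 was at 279, 263, 268, 306, and 294 CPM in control mice and at 236, 264, 226, 268, and 238 CPM in mice fed with 10% RPS. On the diets between, it was at 274, 242, 228, 263, and 259 CPM with 2% RPS and 266, 249.99, 252, 255, and 266 CPM with 5% RPS. On 10% RPS 3 of 5 mice were below every mouse on 0% RPS, and on 2% RPS 4 of 5 were. The log2 fold change with 10% RPS was -0.20 (SE 0.069, adjusted p = 0.131, edgeR). DESeq2's Wald test gave an adjusted p of 0.0495 for it, again with a fold change below 1.5.

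Pdk4 (ENSMUSG00000019577, GRCm39 chr6:5483097-5496339, minus strand) encodes the kinase that shuts off pyruvate dehydrogenase and so spares glucose while fat is burned. It is a textbook target of PPAR-alpha. Pdk4 was at 142, 119, 182, 112, and 97.5 CPM in mice 1 to 5 on 0% RPS, and at 77.1, 126, 49.9, 97.3, and 38.6 CPM on 2% RPS. On 5% RPS the mice had 73.7, 66.4, 56.3, 25.3, and 29.2 CPM, and on 10% RPS 39.4, 49.5, 43.3, 66.2, and 31.2 CPM. All mice on 5 and 10% RPS were below every mouse on 0% RPS, whereas mouse 2 on 2% RPS lay among the control mice. Of the genes tested, 3.2% had every mouse on 10% RPS below every mouse on 0% RPS and 2.04% every mouse on 5% RPS, and Pdk4 was the gene of the 8 that did for both. The means were 130.5 ± 32.96, 77.9 ± 35.6, 50.2 ± 21.9, and 45.9 ± 13.1 CPM from 0 to 10% RPS. Against 0% RPS the log2 fold change was -0.75 with 2% (SE 0.33, adjusted p = 0.849), -1.38 with 5% (SE 0.33, adjusted p = 0.0761), and -1.51 with 10% RPS (SE 0.34, adjusted p = 0.0316, edgeR). These comparisons share the 5 control mice. Over the percentage of RPS the slope was -0.14 per percentage point on the log2 scale (SE 0.033, adjusted p = 0.0453), and from 5 to 10% RPS the change was -0.13 (95% interval -0.83 to 0.56).

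The Pdk4 call at 10% RPS was close to the threshold. It was lost without mouse 1, 3, 4, or 5 on 0% RPS and without mouse 1, 2, 3, or 5 on 10% RPS, with adjusted p values of 0.0543, 0.0704, 0.0554, 0.0572, 0.0963, 0.062, 0.101, and 0.0671 in that order and a log2 fold change that stayed between -1.67 and -1.36 in every fit that left out a mouse. Over all genes the calls in those 8 fits, in the same order, were 98, 34, 42, 42, 19, 34, 14, and 80, against 160 with all mice. At 5% RPS, DESeq2's Wald test called it (adjusted p = 0.00176), as did edgeR without mouse 5 on 2% RPS (adjusted p = 0.0456) or mouse 1 on 5% RPS (adjusted p = 0.0481).

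Angptl4 (ENSMUSG00000002289, GRCm39 chr17:33992724-34000804, minus strand) encodes a secreted inhibitor of lipoprotein lipase and is another known PPAR target. Angptl4 was at 13.7, 12.8, 20.9, 10.5, and 17.4 CPM in control mice and at 6.73, 7.74, 7.21, 15.7, and 9.90 CPM in mice fed with 10% RPS. Its values on 2% RPS were 12.9, 6.61, 7.94, 21.3, and 4.47 CPM and on 5% RPS 10.2, 9.85, 10.5, 11.7, and 4.71 CPM. On 10% RPS all but mouse 4 were below the control mice, and on 2% RPS mouse 4 was the highest of all 20. The log2 fold change with 10% RPS was -0.68 (95% interval -1.41 to 0.061, adjusted p = 0.298, edgeR).

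**Figure D1:**
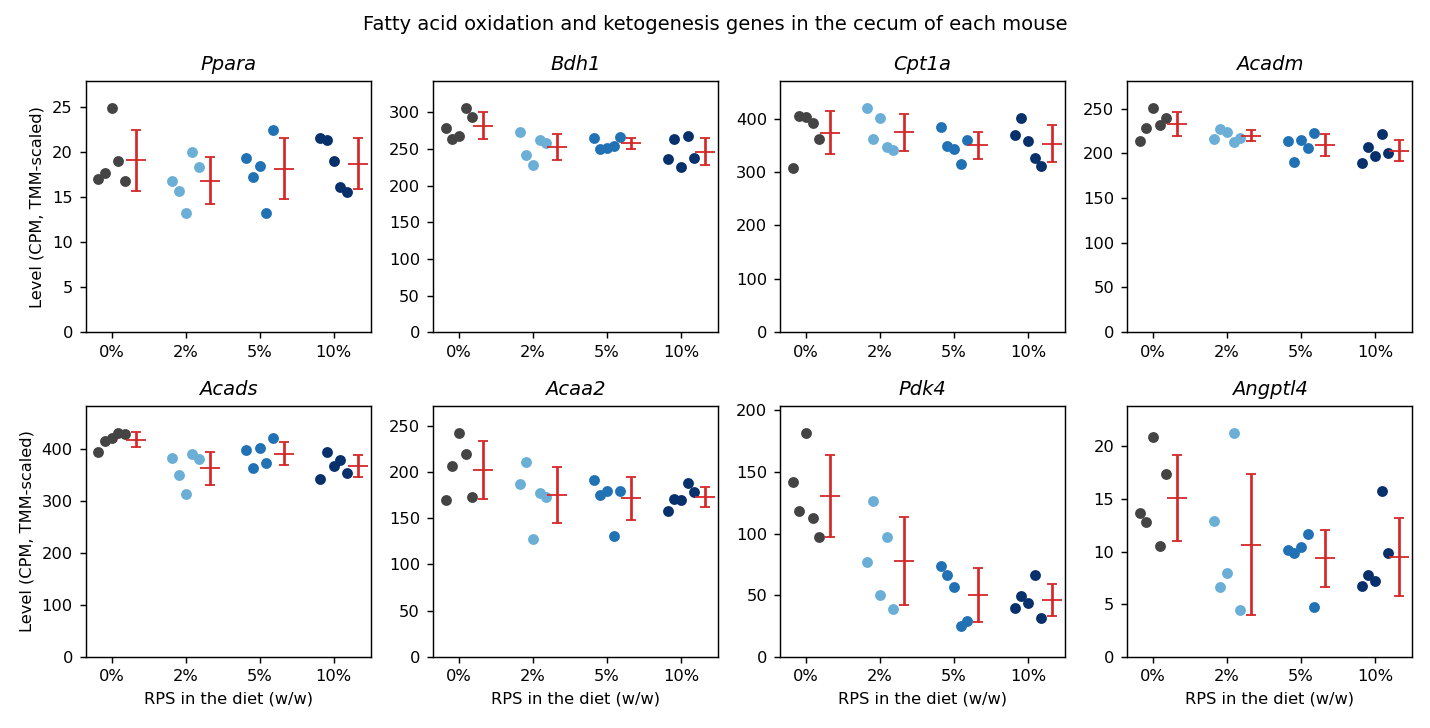
Level of each of the 8 genes (CPM, y axis from 0) in every mouse (points, mice 1 to 5 from left to right) on each diet (x axis, % RPS), with the mean and SD of 5 mice in red. Pdk4 goes from 130.5 ± 32.96 CPM on 0% RPS to 45.9 ± 13.1 CPM on 10% RPS without overlap, while the other 7 genes overlap between these diets.

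**Figure D2:**
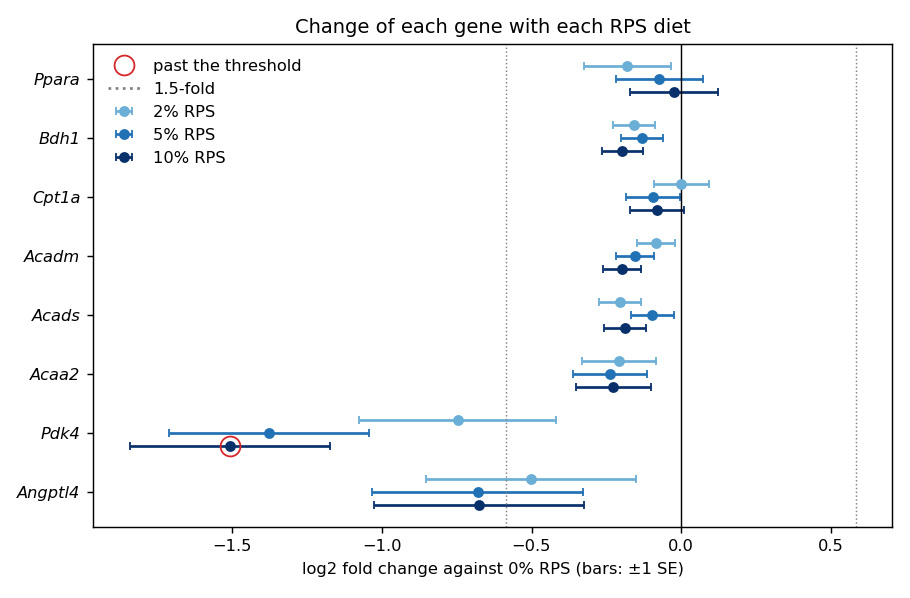
Log2 fold change (x axis) of each gene with 2, 5, and 10% RPS against the same 5 mice on 0% RPS, with bars of 1 SE, and the value past the threshold ringed. Pdk4 with 10% RPS (-1.51) is the ringed value, and the 6 genes other than Pdk4 and Angptl4 lie within the dotted lines of a 1.5-fold change.

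Across the 8 genes all estimates were lower with 10% RPS than with 0% RPS, as were all 8 with 5% RPS and 7 with 2% RPS. These comparisons share the same 5 control mice and do not repeat each other. Between neighbouring doses 5 of the 8 were lower at 5 against 2% RPS (51.2% of all genes). At 10 against 5% RPS 4 were lower (49.7% of all genes). The median log2 fold change with 10% RPS was -0.20, against 0.00405 over all genes tested, of which 49.1% had a lower estimate. An unadjusted p under 0.05 with a lower level was found for 4 of the 8 genes at 10% RPS (9.75% of all genes), 2 at 5% (6.54%), and 3 at 2% RPS (3.19%). Called by edgeR were 1 at 10% RPS and 0 at 5% and 2% RPS, where 0.195% and 0% of all genes were called, and DESeq2 called 1 at 5% and 0 at 2% RPS, where it called 1.41% and 0.027% of all genes with an adjusted p. Between neighbouring doses, 5 against 2% and 10 against 5% RPS, edgeR called 0 of the 8 with 0% and 0% of all genes called, and 0 of the 8 had an unadjusted p under 0.05. The trend over RPS, called at an adjusted p of at most 0.05 with no fold threshold, called 1 of the 8, Pdk4, where 1.11% of all genes passed in either direction and 0.73% with a falling slope. That trend call was lost (adjusted p 0.0519 to 0.124) without mouse 1, 3, 4, or 5 on 0%, 1, 2, or 4 on 2%, 1, 2, or 3 on 5%, or 1, 2, 3, or 5 on 10% RPS, and with no filter on low counts (adjusted p = 0.0526). Over all genes the trend made 170 calls with all mice and 0 to 137 in those 14 fits without a mouse. Without mouse 4 on 10% RPS it made 563, Acadm among them with a slope of -0.022 per percentage point (adjusted p = 0.0441, edgeR).

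The wider pathway had mostly lower estimates as well, in lists that were also chosen with earlier results of these data known. Of 104 listed genes of fatty acid import, oxidation, ketone bodies, and their regulators, the 8 included, 93 were tested. With 10% RPS 75 had lower and 18 higher estimates, where 49.1% of all genes were lower in estimate. At an adjusted p of at most 0.05 without the fold threshold 11 were lower and 0 higher (edgeR), against 1.14% of all genes lower, and the median log2 fold change was -0.20. With 5% RPS, 3 of the 93 were lower at that adjusted p and 0 higher, against 0.15% of all genes lower. Those were Acsl3 (-0.44, adjusted p = 0.0378), Acaa1b (-0.96, adjusted p = 0.0434), and Plin2 (-0.59, adjusted p = 0.0434), the last 2 past the fold threshold too. With 2% RPS 74 of the 93 had lower estimates (49% of all genes), 21 with an unadjusted p under 0.05 (3.19% of all genes). At the adjusted p 0 passed with 2% RPS, nor did any other gene (lowest adjusted p 0.428, edgeR). The count of 11 at 10% RPS fell to 2, 2, and 3 without mouse 3, 4, or 5 on 0% RPS and to 1, 5, 1, and 3 without mouse 1, 2, 3, or 5 on 10% RPS, to 4 in a fit of only the mice on 0 and 10% RPS. Over all genes the count at the same rule went with it, from 175 to 31, 33, and 28 without those mice on 0% RPS, to 12, 29, 11, and 67 without those on 10% RPS, and to 87 with only the 2 diets. DESeq2's Wald test gave 23 of the 91 listed genes with an adjusted p, beside 3.53% of all genes. In every edgeR fit that left out a mouse 71 to 79 of the 93 were lower in estimate. Acsl3 passed in all 20 of those fits, Plin2 in 17, Pdk3 in 16, Hadha and Acaa1b in 14, Cpt2 and Creb3l3 in 13, Acadvl in 11, and Vnn1 in 5. Acsl3 alone passed without mouse 1 and without mouse 3 on 10% RPS.

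For the counts of each list that follow, 49.1% of all genes were lower in estimate with 10% RPS and 1.14% passed as lower. Short lists were not tested against these shares. Of the carnitine shuttle 6 of 6 tested genes were lower in estimate, of the long-chain acyl-CoA synthetases 3 of 5, and 1 of each passed. Cpt2, the inner-membrane partner of Cpt1a, fell from 182 ± 24.8 to 140.1 ± 9.38 CPM with 10% RPS (log2 fold change -0.38, adjusted p = 0.0289, edgeR). Acsl3, which activates long-chain fatty acids, fell from 647 ± 67.5 to 447 ± 27.6 CPM (-0.53, adjusted p = 0.00603), and Slc25a20, the carnitine carrier, was at -0.29 (adjusted p = 0.213). Of the butyrate and medium-chain acyl-CoA synthetases 2 of 3 were lower in estimate and 0 passed. Acss1 and Acss3, mitochondrial synthetases of short-chain acyl-CoA, were at 0.26 (adjusted p = 0.193) and -0.42 (adjusted p = 0.682), the latter at a mean of only 0.453 CPM on 0% RPS. Of the 15 mitochondrial β-oxidation genes 13 were lower in estimate and 2 passed, Hadha of the trifunctional protein (-0.35, adjusted p = 0.0268) and Acadvl, the very-long-chain dehydrogenase (-0.29, adjusted p = 0.0411). Etfa and Etfdh, which pass the electrons on, and whose list had 3 of 3 genes lower in estimate and 0 passing, were at -0.19 (adjusted p = 0.356) and -0.24 (adjusted p = 0.109).

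Of 15 genes of peroxisomal β-oxidation 12 were lower in estimate and 2 passed. The thiolase Acaa1b fell from 124 ± 34.5 to 63.6 ± 16.3 CPM with 10% RPS (-0.96, adjusted p = 0.0266, edgeR). Oxct1, which uses ketone bodies, was at -0.24 (adjusted p = 0.218). Of the 6 ketone body genes 5 were lower in estimate and 0 passed at 10% RPS in edgeR. An unadjusted p under 0.05 with a lower level was found for 3 of them and for 9.75% of all genes. DESeq2's Wald test passed Bdh1 and Acat1, beside 3.53% of all genes as lower.

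Of the 9 nuclear receptors and coactivators 7 were lower in estimate and 1 passed. Creb3l3, a liver and gut transcription factor that acts with PPAR-alpha, fell from 163 ± 37.7 to 47.8 ± 28.3 CPM with 10% RPS (-1.78, adjusted p = 0.0289), with every mouse on 10% RPS below every mouse on 0% RPS. Pparg was at -0.41 (adjusted p = 0.0507) and passed in the trend (adjusted p = 0.0459), and Rxra, the partner of the PPARs, was at 0.029 (adjusted p = 0.883). Of 14 other PPAR-alpha targets, Pdk4 and Angptl4 included, 12 were lower in estimate and 3 passed, and without these 2 genes it was 10 of 12 and 2. Plin2, a lipid droplet coat protein, fell from 214 ± 40.7 to 139.6 ± 7.47 CPM (-0.62, adjusted p = 0.0251) and Vnn1, a pantetheinase, from 10.5 ± 2.42 to 6.09 ± 1.45 CPM (-0.78, adjusted p = 0.0487), while Ucp2 was at -0.29 (adjusted p = 0.168). In the control of pyruvate dehydrogenase 9 of 12 genes were lower in estimate and 2 passed, Pdk4 and Pdk3. Pdk3, a relative of Pdk4, fell from 38.4 ± 3.15 to 28.5 ± 2.02 CPM (-0.43, adjusted p = 0.0251), and Pdhb, a subunit of pyruvate dehydrogenase, was at -0.23 (adjusted p = 0.206). Of 7 genes of the angiopoietin-like family and lipoprotein lipase 5 were lower in estimate and 0 passed, and Lpl, the lipase that Angptl4 inhibits, was at -0.55 (adjusted p = 0.335). In the trend over RPS 6 of the 93 passed, all with falling slopes, Pdk4, Plin2, Creb3l3, Pparg, Hadha, and Acsl3. That count was 0 without mouse 1, 3, 4, or 5 on 0% RPS or mouse 1 or 3 on 10% RPS, between 1 and 3 without mouse 1, 2, or 4 on 2%, 1, 2, 3, or 5 on 5%, or 5 on 10% RPS, and 10 and 13 without mouse 4 on 10% and mouse 3 on 2% RPS. Over all genes 112 had a falling slope that passed, 0 to 11 in the fits that gave 0 here, and 322 and 296 in the last 2.

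**Figure D3:**
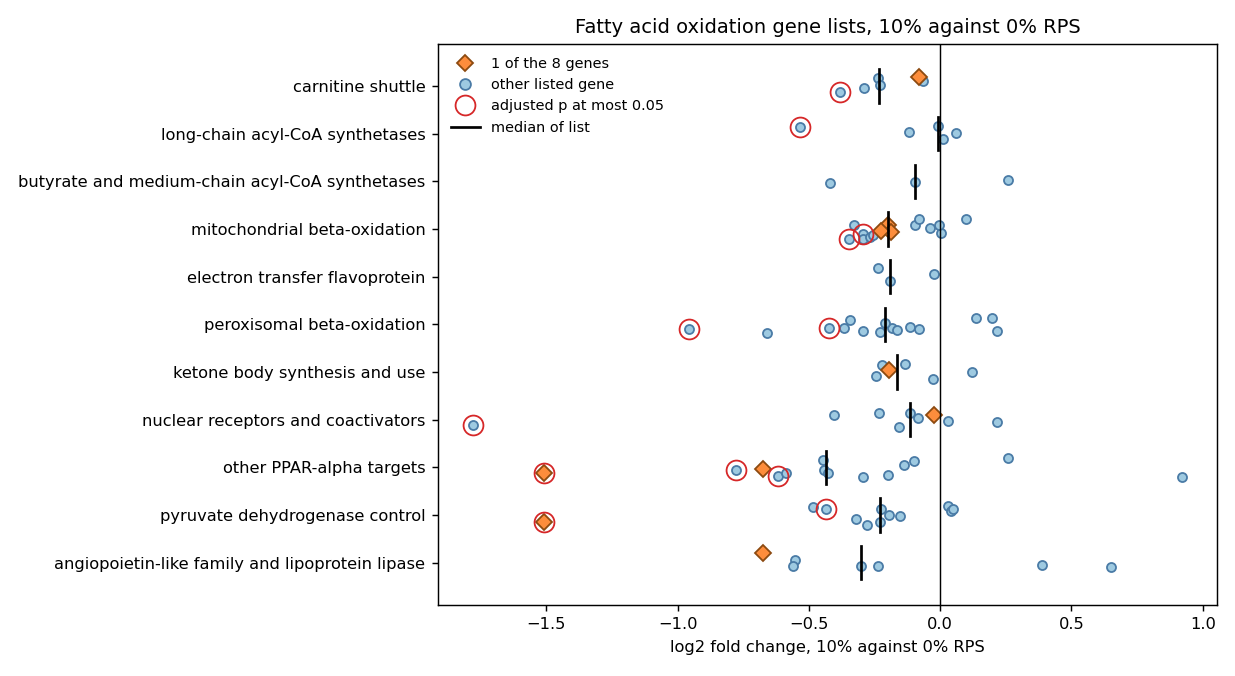
Log2 fold change with 10 against 0% RPS (x axis) of the 93 tested genes in 11 lists (y axis, spread within a list for visibility, a gene in 2 lists drawn in each), with the 8 genes as diamonds, the median of each list as a line, and genes with an adjusted p of at most 0.05 ringed. The 11 ringed genes all lie to the left of 0, from -1.78 (Creb3l3) to -0.29 (Acadvl).

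The marker sums were not tested themselves, and for all cell types but goblet cells they overlapped between 0 and 10% RPS. From 0 to 10% RPS the range of the summed epithelial markers went from 11678 to 15057 CPM to 10214 to 14489 CPM, with 7 of 7 genes lower in estimate and 0 passing (edgeR, adjusted p at most 0.05). The colonocyte markers went from 31741 to 35911 CPM to 20585 to 32745 CPM, with 3 of 5 lower in estimate, 1 passing as lower, and 1 passing as higher. The smooth muscle markers went from 2196 to 5331 CPM to 3613 to 5689.9 CPM, with 5 of 5 higher in estimate, and the B and plasma cell markers from 55.4 to 446 CPM to 271 to 491 CPM, with 5 of 5 tested higher and 0 passing in either list. The 5 goblet cell markers summed to 5344 to 7466 CPM and 4527 to 5274 CPM without overlap, all 5 lower in estimate and 0 passing. Lower in estimate were 6 of 6 enteric neuron and glia markers, 3 of 4 endothelial, 2 of 4 skeletal muscle, 1 of 4 T cell, and 0 of 5 macrophage markers, and 0 of these passed. The part of these cell types in the lower levels was not tested. Per 1000 CPM of the summed epithelial markers, Pdk4 was at 9.98 ± 3.10 on 0% RPS and 3.89 ± 0.9754 on 10% RPS, 61% lower, and Angptl4 29.6% lower. Bdh1 (21.2 ± 1.09 and 21.0 ± 1.70), Acadm (17.6 ± 1.98 and 17.4 ± 1.88), and Acads (31.5 ± 2.89 and 31.4 ± 3.15) then had nearly the same means on both diets. Acaa2 (15.4 ± 3.19 and 14.8 ± 1.82) was lower in mean with 10% RPS, while Cpt1a (28.3 ± 4.84 and 30.3 ± 4.43) and Ppara (1.45 ± 0.329 and 1.61 ± 0.331) were higher, so on this scale the 8 genes did not share a direction. These ratios were not tested.

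**Figure D4:**
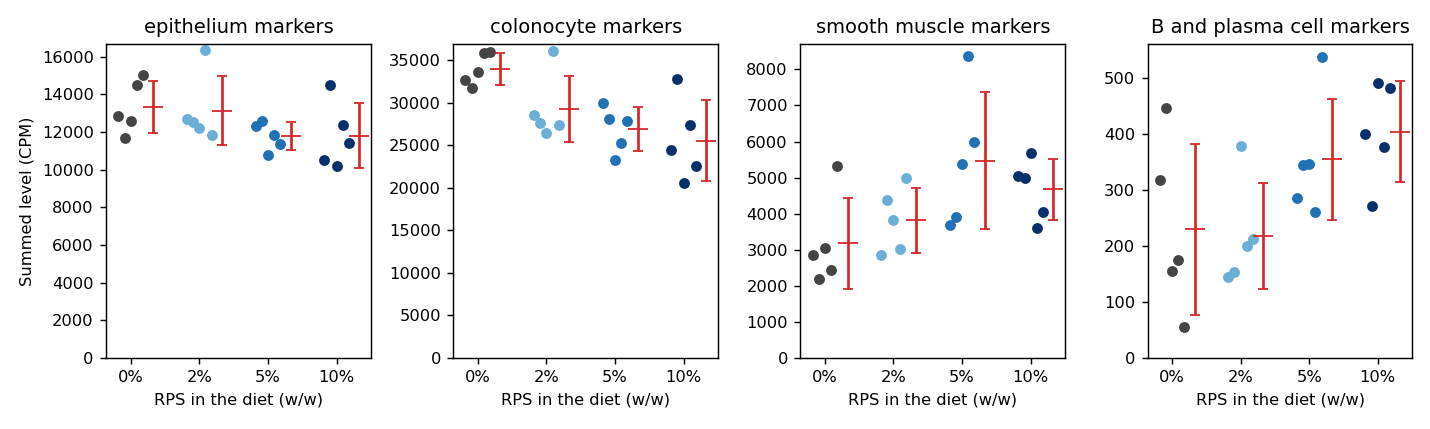
Summed level (CPM, y axis from 0) of the epithelial, colonocyte, smooth muscle, and B and plasma cell markers in every mouse (points) on each diet (x axis, % RPS), with the mean and SD of 5 mice in red. The colonocyte sum goes from 33958 ± 1899.7 CPM on 0% RPS to 25552 ± 4749.6 CPM on 10% RPS, and the smooth muscle sum from 3172 ± 1253 to 4671 ± 835 CPM.

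Fat cell RNA differed between mice of one diet. Adipoq, the fat cell hormone adiponectin, was above 10 CPM in 6 mice, mouse 1 on 0% RPS (34.6 CPM), mice 4 and 5 on 2% (36.1 and 18.9 CPM), mice 3 and 4 on 5% (19.3 and 14.8 CPM), and mouse 4 on 10% RPS (27.8 CPM). It had 0 counts in mouse 1 on 2% and mouse 5 on 10% RPS, which allows up to 0.146 and 0.113 CPM at 3 counts. The 8 adipocyte markers had sums of 142 to 423 CPM in control mice and of 86.1 to 364 CPM in mice fed with 10% RPS, with 7 of 8 lower in estimate and 0 passing. Mouse 4 on 10% RPS, with the highest Adipoq of its diet, also had the highest Pdk4 (66.2 CPM) and Angptl4 (15.7 CPM) of its diet, and mouse 4 on 2% RPS the highest Angptl4 (21.3 CPM). Other mice above 10 CPM went the other way. Mouse 5 on 2% RPS had the lowest Pdk4 (38.6 CPM) and Angptl4 (4.47 CPM) of its diet, and mouse 4 on 5% RPS the lowest Pdk4 (25.3 CPM). Without these 6 mice, a choice made after the levels were seen, the log2 fold change with 10% RPS was -1.64 for Pdk4 (adjusted p = 0.0261) and -0.96 for Angptl4 (adjusted p = 0.078), and 12 of the 93 pathway genes were lower at an adjusted p of at most 0.05 (edgeR), beside 1.95% of all genes against 1.14% with all mice. Pdk4 was still called with those 14 mice, while Vnn1 missed the adjusted p of 0.05. The mice left in were not matched in Adipoq, at 4.67 ± 3.48 CPM on 0% RPS and 1.31 ± 2.33 CPM on 10% RPS (4 mice each). Mouse 3 on 0% RPS stayed in at 9.30 CPM of Adipoq, with the highest Pdk4 (182 CPM) and Angptl4 (20.9 CPM) of its diet. The part of fat cell RNA in the lower Pdk4 was thus not tested by leaving mice out.

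**Figure D5:**
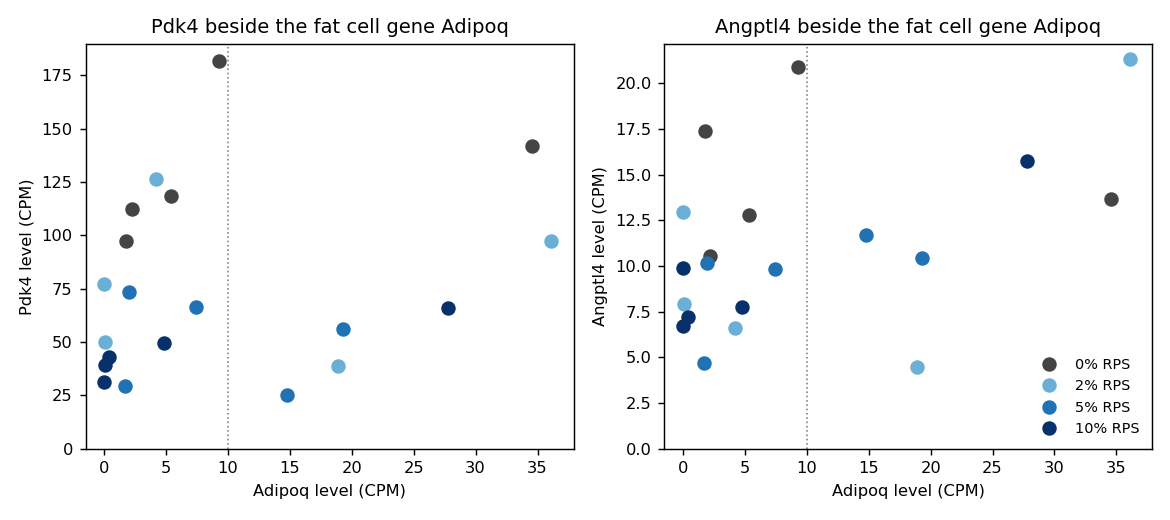
Level of Pdk4 (left) and Angptl4 (right) in CPM on the y axis against the level of the fat cell gene Adipoq in CPM on the x axis, with a point for each of the 20 mice coloured by diet and a dotted line at 10 CPM. The 6 mice to the right of the line come from all 4 diets, and they include the highest mouse on 10% RPS for both genes (27.8 CPM of Adipoq) as well as the lowest mouse on 2% RPS for both genes (18.9 CPM of Adipoq).

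The genes closest to each of the 8 over the 20 mice were found by Pearson's r of log2 CPM, as a description, since the mice share the diets and the tissue makeup. Closest to Pdk4 were Hilpda, a lipid droplet protein that inhibits fat breakdown (r = 0.917, and 0.801 within diets), Mgst2 (0.915), and Rbp2, the cellular retinol-binding protein of the gut (0.907). With 10% RPS Hilpda was at -1.42 (adjusted p = 0.0263) and Rbp2 at -1.26 (adjusted p = 0.00847) on the log2 scale, both past the threshold, and Mgst2 was at -0.60 (adjusted p = 0.0784, edgeR). Acaa2 was closest to Hadhb, the trifunctional protein subunit with its own thiolase (0.920), Mgst1 (0.917), and Ap1m2 (0.914), and Acadm to Hadh, another β-oxidation dehydrogenase (0.847), Fbp2 (0.831), and Mapre2 (0.825). Bdh1 was closest to Tmem14c (0.891), Ndufa10 (0.867), and Samm50 (0.864), and Acads to Mtch2 (0.896), Hsd17b10 (0.852), and Ndufb11 (0.835). Ppara was closest to Lars2 (0.815), Lcmt1 (0.808), and Il31ra (0.799), Cpt1a to Slc18b1 (0.804), Gm11437 (0.773), and Akap9 (0.739), and Angptl4 to Mbd3 (0.820), Degs2 (0.797), and Eif4ebp1 (0.793). Among the 28 pairs of the 8 genes, r was above 0 in 26, and the closest pair was Bdh1 and Acads (0.822, and 0.723 within diets). Pdk4 was at 0.60 with Angptl4 (0.458 within diets), 0.666 with Acaa2 (0.609 within diets), and 0.205 with Ppara.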

How the data were processed

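The authors made stranded mRNA libraries and sequenced them from a single end. They trimmed low-quality bases, dropped reads with over 2 ambiguous bases, aligned the rest to GRCm39 with the CLC Genomics Workbench, and deposited raw counts per Ensembl gene. The annotation release, the treatment of multi-mapping reads, and the strand setting are not given in the sources used here. Mice were assigned to diets by the sample labels and numbered 1 to 5 per diet in accession order, with no pairing. The 40 pairs of mice of a diet differed by more than sampling noise (chi-square per degree of freedom 13.6 to 137).

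Symbols and merged exon lengths came from GENCODE M39 (19827 of 19887 identifiers matched). The deposited counts were tested with edgeR 4.0.16 under R 4.3.3 (filterByExpr, minimum count 10 and total 15, 15348 genes, TMM, robust quasi-likelihood over all 20 mice, two-sided) and DESeq2 1.42.0, and in Python 3.11.15. The edgeR test of 10 against 0% RPS was also run on simulated counts, and its outcome is not reported here. SEs come from the fold change and F statistic, log2 CPM used a prior count of 2, and intervals cover the spread between mice. The call rule between diets followed the study's thresholds, with edgeR in place of DESeq2, and the trend had no fold threshold. Named were the 8 genes, and of each list every gene called in a comparison with 0% RPS or in the trend, the gene with the highest level, and the gene with the largest change at 10% RPS, and for each of the 8 the 3 genes of highest Pearson r. Genes at an adjusted p of at most 0.05 without the fold threshold were named after their values were seen. The values of some listed genes are not reported here. The 8 genes and all lists were chosen with earlier results of these data known. Alternatives were DESeq2 size factors, DESeq2's Wald test, no filter, no robust step, only the diets compared, no fold threshold, the rank of the dose, each mouse left out, and, chosen after seeing the data, 6 mice left out for Adipoq above 10 CPM. Running the alternatives on the pathway genes was also chosen after seeing the data.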

Additional observations from a re-analysis of the deposited data

Results flagged for a closer look

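In 3 groups a mouse stood apart from the others of its diet by Dixon's criterion for 5 samples (gap to the nearest mouse over the range above 0.71). Ppara in mouse 3 on 0% RPS was at 24.9 CPM, and the nearest mouse was at 19.0 CPM. Acaa2 in mouse 4 on 5% RPS was at 131 CPM, and the nearest mouse was at 176 CPM. Angptl4 in mouse 5 on 5% RPS was at 4.71 CPM, and the nearest mouse was at 9.85 CPM. In 32 groups of 5 mice chance gives such a value in about 1 group of 20.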

How the results depend on the processing

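The number of the 8 genes called with 10% RPS was 1 in the fits with all mice and without the 6 mice with high Adipoq, and 0 to 1 with each mouse left out (0 in 8 of 20 fits). With 5% RPS it was 0, but 1 with DESeq2's Wald test, and 0 to 1 with each mouse left out. With 2% RPS and between neighbouring doses it was 0 in all fits. The trend called 1, 2 with DESeq2's Wald test, 0 with no filter on low counts, and 0 to 2 with each mouse left out. Of the pathway genes, 11 were lower at 10% RPS, 23 with DESeq2's Wald test, 4 with only the 2 diets compared, and 1 to 16 with each mouse left out, and 6 in the trend, 15 with DESeq2's Wald test, 3 with no filter, 13 with the rank of the dose, and 0 to 13 with each mouse left out. Over all genes with an adjusted p, the share lower at 10% RPS was 1.14%, 3.53% with DESeq2's Wald test, 0.584% with only the 2 diets compared, and 0.0713% to 2.15% with each mouse left out. In the trend it was 0.73%, 2.83% with DESeq2's Wald test, 0.356% with no filter, 2.19% with the rank of the dose, and 0% to 2.08% with each mouse left out. Ppara at 10% RPS went from -0.078 to 0.089 on the log2 scale over the fits with a mouse left out, above 0 without mouse 3 on 0% RPS (0.089) and without mouse 4 (0.030) or 5 (0.043) on 10% RPS. In the fit of only the diets compared, 7 of the 11, Cpt2, Acadvl, Hadha, Acaa1b, Creb3l3, and Vnn1 among them, missed the adjusted p of 0.05 with fold changes of the same sign. The cause of these shifts was not tested. No paired analysis was possible because the mouse numbers differ between diets.

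With 5 mice per diet the 95% interval of Angptl4 reached from -1.41 to 0.061, which holds both no change and one past the fold threshold. Angptl4 had the fewest reads, at least 100 in every mouse, and the other 7 genes had at least 292.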
